A study of Mus musculus with 5 samples.

Results

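Fibroblast growth factor (FGF) signalling was followed here through 10 genes, taken by symbol from 19966 gene models counted in mm9: the ligand Fgf4, the receptors Fgfr1 and Fgfr2, the ETS transcription factors Etv4 and Etv5, and the feedback inhibitors Spry2, Spry4, Dusp6, Spred1 and Spred2. Engaged RNA polymerase had been mapped by global run-on sequencing (GRO-seq). The 3 MESC samples were V6.5 mouse embryonic stem cells and the 2 MEF samples were fibroblasts from mouse embryos, and for both the labels give the cross C57Bl/6(f) x 129/Sv(m). The MESC were at passage 12 to 14 and grew on irradiated feeder cells with LIF and 15% serum. The MEF came from a male embryo of stage E13.5, were at passage 2, and grew without LIF in 10% serum. Serum and LIF therefore differed along with the cell type, and their parts cannot be told apart. The reads of each cell type were deposited as 1 pooled library, so no spread between samples exists and no p-value between the cell types is given. Every interval below is an exact 95% interval of read counts and covers counting error only, since PCR copies cannot be told from separate molecules without molecular identifiers.

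FGF4 is secreted by pluripotent cells and binds FGF receptors, which are tyrosine kinases that signal through adaptors, RAS and the MEK and ERK kinases. ERK activity switches on Etv4, Etv5, Sprouty, Spred and Dusp6 genes, and several of their products damp the same pathway, which makes these genes common readouts of FGF and ERK activity. In a run-on, polymerases already engaged on DNA extend their transcripts in isolated nuclei, so read density reports polymerase on a gene and not the amount of stable mRNA. Many genes hold a polymerase paused just after the start site, and its release into the body is a control step separate from recruitment to the promoter.

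For each gene 3 windows were counted by the 5′ end of the read: the promoter window, from 50 bp before to 300 bp after the annotated start, the body, from 1000 bp after the start to the annotated end, and the upstream antisense window, 500 bp on the opposite strand. Density is given as RPKM, reads per kilobase for every 1000000 reads outside the mitochondrial genome. The pausing index is the promoter density divided by the body density, so that a gene whose promoter and body move by the same factor keeps its index, and a gene whose body moves alone does not.

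The libraries held 8616592 reads in MESC and 6583644 in MEF, and 74.7% and 71.4% of the read positions were distinct. The cell types carried their markers: 5 ES cell genes summed to 37.2 RPKM in MESC and 0.180 in MEF, with Zfp42 and Tdgf1 at 0 reads in MEF. The 7 fibroblast genes summed to 2.04 RPKM in MESC and 97.8 in MEF. MESC thus held a small fibroblast signal, and whether the feeder cells supplied it, or part of any value below, was not tested. Macrophage genes (5) summed to 2.58 and 11.5 RPKM in MESC and MEF, mostly from Cd68 (2.48 and 9.06). Primitive endoderm genes (4) summed to 1.73 and 3.17, of which Pdgfra gave 0.605 and 2.84. Unlike that sum, Gata4 (134 and 10 reads) and Sox17 (20 and 0) were higher in MESC. Gata6 (72 and 64 reads) did not differ beyond counting error. Endothelial genes (3) summed to 0.345 and 0.184. In such bulk libraries fewer cells of a type and less RNA per cell cannot be told apart. The median body of all 9527 tested genes was higher in MESC by 0.30 on the log2 scale, and the members are read against that shift.

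The start regions of 4 members are shown because the results turn on them: Etv5 held 116 promoter reads in MESC and 108 in MEF, Spry2 and Dusp6 are feedback genes with short bodies, and Fgf4 was read in MESC only. The windows run from 250 bases before to 49 bases after the annotated start site with the most promoter reads, on the gene's strand, in mm9. For Etv5 the starts 101, 103 and 149 bp into the gene tied, and the last was used. Capitals mark matches on either strand to GGGCGG (the Sp1 box) or GAGAG (the GAGA element).
Etv5, chr16:22439594-22439893, strand -: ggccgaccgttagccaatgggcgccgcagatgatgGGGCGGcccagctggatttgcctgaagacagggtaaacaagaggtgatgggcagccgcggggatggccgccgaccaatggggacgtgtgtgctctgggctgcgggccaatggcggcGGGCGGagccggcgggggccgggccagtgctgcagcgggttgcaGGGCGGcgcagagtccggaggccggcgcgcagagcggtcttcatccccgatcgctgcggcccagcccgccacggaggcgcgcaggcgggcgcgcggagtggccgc
Dusp6, chr10:98725615-98725914, strand +: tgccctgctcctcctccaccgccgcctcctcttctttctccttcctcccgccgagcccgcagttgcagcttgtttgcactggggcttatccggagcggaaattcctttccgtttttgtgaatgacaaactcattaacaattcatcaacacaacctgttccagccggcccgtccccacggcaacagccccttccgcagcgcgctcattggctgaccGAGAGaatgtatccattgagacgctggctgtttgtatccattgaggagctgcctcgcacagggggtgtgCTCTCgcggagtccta
Spry2, chr14:106295987-106296286, strand -: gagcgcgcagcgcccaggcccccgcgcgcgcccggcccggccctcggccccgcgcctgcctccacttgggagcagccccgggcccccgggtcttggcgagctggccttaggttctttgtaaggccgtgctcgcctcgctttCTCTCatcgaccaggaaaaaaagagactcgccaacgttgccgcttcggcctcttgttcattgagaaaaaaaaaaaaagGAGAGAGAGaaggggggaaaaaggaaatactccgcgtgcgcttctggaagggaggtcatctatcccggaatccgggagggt
Fgf4, chr7:152047041-152047340, strand +: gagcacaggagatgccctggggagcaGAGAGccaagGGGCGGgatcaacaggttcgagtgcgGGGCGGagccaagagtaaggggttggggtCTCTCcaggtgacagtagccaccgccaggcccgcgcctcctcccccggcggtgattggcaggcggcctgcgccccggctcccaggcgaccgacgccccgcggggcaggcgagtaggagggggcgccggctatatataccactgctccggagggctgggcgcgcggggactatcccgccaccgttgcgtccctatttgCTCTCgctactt
The exact string CCGGAAG, 1 form of the sites that ETS proteins such as ETV4 and ETV5 can bind, was in none of the 10 members' windows. It was in 11.7% of 19961 windows of all genes. Shorter or variant ETS sites built on GGAA were not searched, and GGAA itself occurs in the printed Dusp6 and Spry2 windows. The exact string TATAAA was also in none of the 10, against 10.6% of all windows. Variants of it were not searched, and the printed Fgf4 window holds tatatata upstream of the start. GGGCGG was in 7 of the 10 against 45.0%, and GAGAG in 8 against 63.0%. Matches overlap in places: the Spry2 run holds 3 overlapping GAGAG matches, which begin 31, 29 and 27 bp before the start. Each of the 10 windows had a ratio of observed to expected CpG above the median of all windows, 0.547, and they ranged from 0.605 (Etv4) to 1.04 (Fgfr2). These letters describe the windows and show neither binding nor its absence.

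The bodies of the 10 genes were compared first. Fgf4, Etv5 and Spry4 passed a 4-fold excess in MESC, as did 7.98% of the 9527 genes tested. Fgf4, with 54 reads, rests on the 50-read minimum and fell out of the tested genes under 5 of the alternatives tried. Fgfr2 passed 4-fold in MEF, as did 5.53%. With the threshold at 2-fold and the interval beyond 1, Spry2 and Dusp6 joined the MESC side, which made 5 of 10 against 20.8% of all genes, and Fgfr2 stayed alone on the MEF side, 1 of 10 against 12.7%. Scaled to the median gene, Fgfr1 joined it, 2.11-fold higher in MEF (1.91 to 2.33), and Dusp6 left the MESC side, at 1.68-fold (1.33 to 2.15). The shares of all genes at 2-fold were not computed under that scaling. The median log2 ratio of the 10 bodies was 0.96. Scaled to all reads, Etv4, Spred1 and Spred2 were higher in MESC by less than 2-fold, and Fgfr1 was higher in MEF by less than 2-fold.

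Of the 5 members with at least 20 promoter reads in 1 library (Fgfr1, Etv5, Spry2, Spry4 and Dusp6), none was 4-fold higher in MESC, where 6.03% of 4359 genes were, and none was 4-fold higher in MEF, where 2.96% were. At 2-fold with the interval beyond 1, Spry2 and Spry4 were higher in MESC, 2 of 5 against 19.3%, and none was higher in MEF, against 9.29%. The Spry4 promoter fell under 2-fold when scaled to the median gene (1.94, from 1.23 to 3.14). With each position counted once, both promoters fell under 2-fold, at 0.81 (Spry2) and 0.78 (Spry4) on the log2 scale. The median log2 ratio of the 5 promoters was 0.29, beside 0.32 over all genes.

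**Figure D1:**
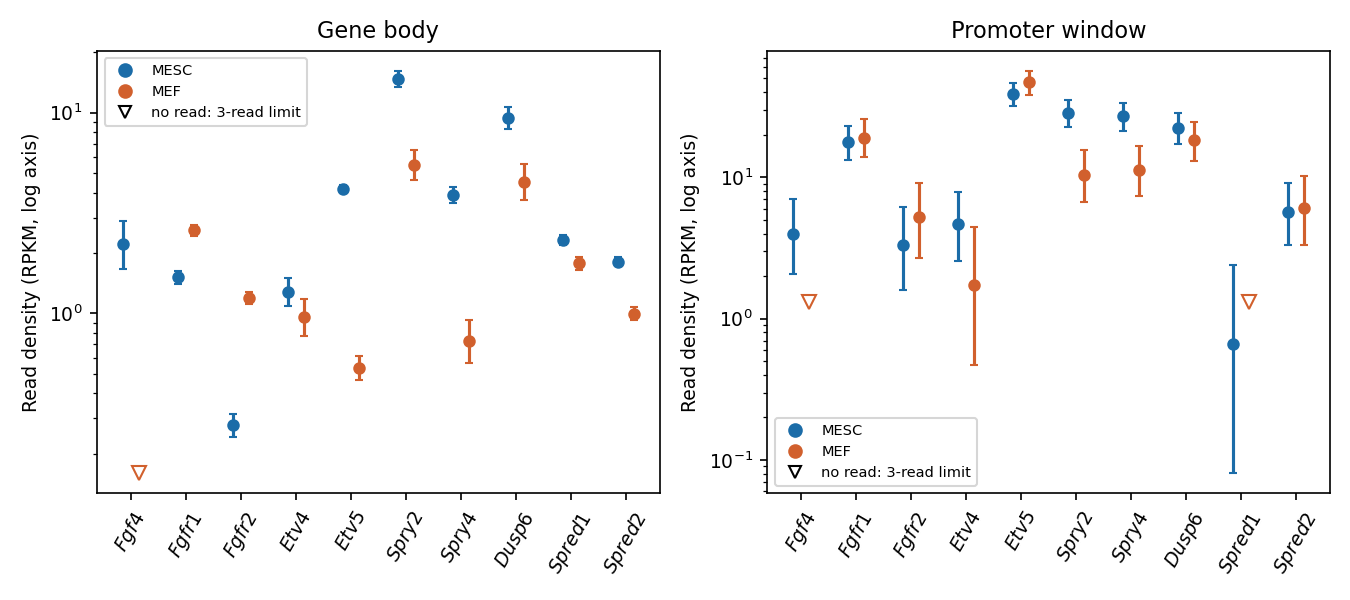
Read density of the 10 genes in the body (left) and in the promoter window (right), in RPKM on log axes, for MESC (blue) and MEF (orange). Points are pooled libraries, bars are exact Poisson 95% intervals, and open triangles mark the density of 3 reads where no read was found. The largest body gap among genes read in both libraries is that of Etv5, 4.16 against 0.535 RPKM, while its promoter points overlap.

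The ligand Fgf4 was the one member with no body read in a cell type. Its gene (chr7:152047291-152051148, plus strand, 3 exons) held 54 body reads in MESC and 0 in MEF. Its body density was 2.20 RPKM in MESC, and the MEF library had no body read, where a floor of 3 reads is 0.160 RPKM and the exact upper limit is 0.196 RPKM. Against that 3-read floor the excess of the MESC body was 13.8-fold, and the exact interval of the ratio begins at 10.8. In the promoter window the counts were 12 and 0, which makes MESC 3.07-fold higher against the 3-read floor, and the exact interval begins at 2.13. With the body counted from 3000 bp Fgf4 had fewer than the 50 reads needed for a call, and its log2 ratio against the floor was 2.73.

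The 12 promoter reads lay at 12 distinct positions with a median of 37.0 bp after the start. The MESC pausing index was 1.81 (0.881 to 3.43), lower than the median of 3.90 over 12957 active genes, where active means at least 20 promoter reads or a body above intergenic background. In the full promoter window Fgf4 thus did not stand above its own body beyond counting error, but 11 of the 12 reads lay in the first 150 bp, and with a window from 0 to 150 bp the index was 4.21 and passed the call. It was the one member not active in MEF. Polymerase continued past its annotated end in MESC, with 62 reads in the next 2000 bp (3.62 RPKM) and 16 reads from there to 5000 bp, against 0 and 0 in MEF.

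The receptors went the other way. Fgfr1 encodes the main FGF receptor of ES cells, and Fgfr2 encodes a receptor better known from extraembryonic endoderm and epithelia. Fgfr1 (chr8:26629264-26686186, plus strand, 18 exons) held 726 body reads in MESC and 952 in MEF, 1.52 and 2.59 RPKM. The body was 1.71-fold higher in MEF (1.55 to 1.89). Its promoter held 53 reads in MESC and 44 in MEF, and the MESC to MEF ratio of 0.923 had an interval from 0.608 to 1.41 that includes 1. The promoter reads of both libraries lay at short distance after the start, with medians of 57.0 bp in MESC and 80.5 bp in MEF.

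Fgfr1 was thus higher in the MEF body with no promoter difference beyond counting error. Its index was 11.6 (8.63 to 15.4) in MESC and 7.36 (5.31 to 9.96) in MEF, a ratio of 1.58 (1.03 to 2.44). This ratio was not even over the MESC reads: the 35-base reads alone gave an index of 15.8 and the 36-base reads alone 8.83. The 35-base reads also gave a lower body density than the 36-base reads, by a ratio of 0.782 (0.672 to 0.909). Read length is the one technical split that the files show, and its part in the Fgfr1 index was not tested.

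Fgfr2 (chr7:137306026-137409759, minus strand, 16 exons) held 244 body reads in MESC and 804 in MEF, 0.277 and 1.19 RPKM, so that the body was 4.30-fold higher in MEF (3.72 to 4.98). This was the largest MEF excess among the members. Its promoter held 10 and 12 reads, too few for the promoter comparison, with a MEF to MESC ratio of 1.57 (0.620 to 4.05). The index was 12.0 (5.68 to 22.4) in MESC and 4.37 (2.25 to 7.67) in MEF. The MESC index was 4.84 with the 35-base reads alone (2 promoter reads) and 19.0 with the 36-base reads alone (8 promoter reads). The MEF body excess was present in each of 5 equal parts of the 102734 bp body, with MESC to MEF ratios from 0.168 to 0.280. The longest annotated Fgfr2 transcript spans 3009069 bp and covers many other genes, so the next longest was used, and with that model the direction turns, as given in the closing section.

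The ETS factors differed from each other. Etv5 and Etv4 are PEA3-family transcription factors that act downstream of FGF and ERK signals. Etv5 (chr16:22381382-22439792, minus strand, 13 exons) held 2047 body reads in MESC and 202 in MEF, 4.16 RPKM (3.98 to 4.34) and 0.535 RPKM (0.464 to 0.615). The Etv5 body was 7.77-fold higher in MESC (6.72 to 9.02). Its promoter window held 116 reads in MESC and 108 in MEF, 38.6 RPKM (31.9 to 46.3) and 46.8 RPKM (38.4 to 56.5). The promoter ratio of MESC to MEF was 0.823 (0.628 to 1.08), an interval that includes 1. Set against the median gene, by scaling to the median body ratio, the promoter ratio was 0.667 (0.509 to 0.875) and the body ratio 6.30 (5.45 to 7.31). Under that scaling the promoter was lower in MESC beyond counting error while the body was higher, and under either scaling promoter and body did not move together.

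The Etv5 index was 9.27 (7.62 to 11.2) in MESC and 87.5 (68.6 to 111.0) in MEF. It lay above 73.1% of active genes in MESC and above 99.1% in MEF. The index was 9.43-fold higher in MEF (6.91 to 12.9), the largest such ratio among the 2243 genes that held 20 or more reads in all 4 counts. The next gene, Ncoa3, had a ratio of 6.24. Over the alternatives tried, the Etv5 ratio ran from 8.41 with the 36-base MESC reads alone to 10.9 with the 35-base reads alone. Etv5 in MEF is also above background in its body, since intergenic density there was 0.0173 RPKM.

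**Figure D2:**
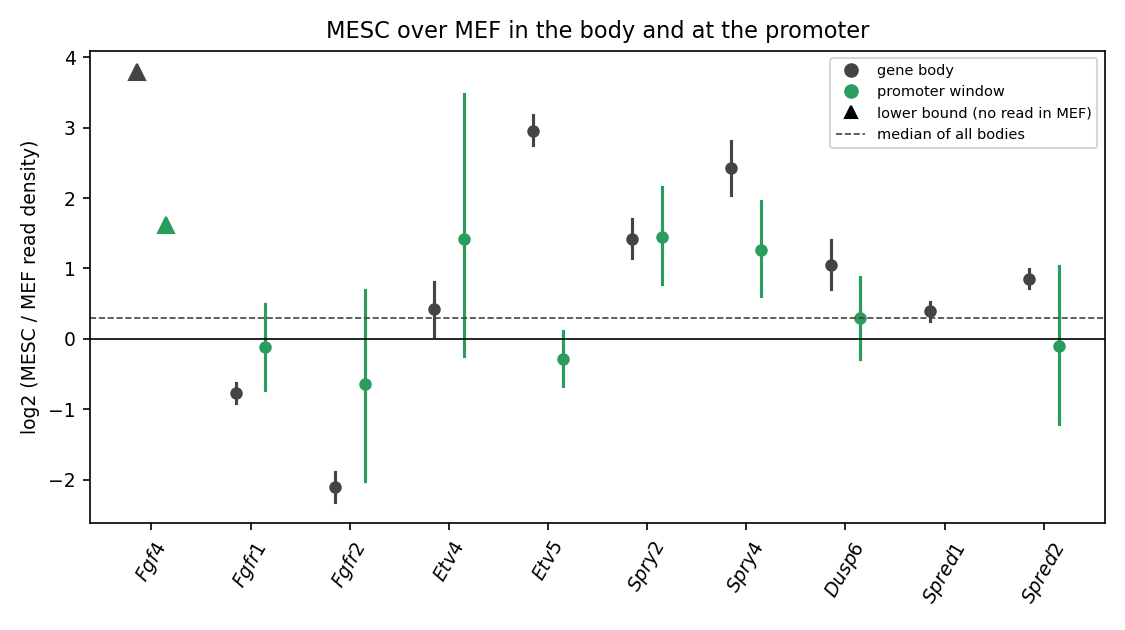
log2 ratio of MESC to MEF read density for each gene in the body (grey) and in the promoter window (green). Points are ratios of the pooled libraries with exact 95% intervals of counting. Triangles, which the key calls lower bounds, are Fgf4 ratios with 3 reads standing in for none in MEF. The exact lower limits of the Fgf4 ratios, 10.8 (body) and 2.13 (promoter), lie below them. The dashed line is the median of all bodies (0.30), and no promoter ratio is drawn for Spred1 (2 and 0 reads). Etv5 stands apart with a body near 2.96 and a promoter near -0.28, while both Spry2 points lie near 1.4.

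The 5′ ends of Etv5 promoter reads lay in one narrow cluster in both cell types. They began about 100 bp after the longest transcript's annotated start: 115 of 116 MESC and 107 of 108 MEF promoter reads lay between 100 and 249 bp after it, and the most-read base was 143 bp after the start in MESC (6 reads) and 142 bp in MEF (11 reads). Annotated starts of shorter transcripts, 101, 103 and 149 bp into the gene, lie within the span of this cluster. Promoter windows from each of them held 120 MESC and 110 MEF reads. The reads used 52 positions in MESC and 49 in MEF, 36 of them in both, which held 71.6% of the MESC and 77.8% of the MEF promoter reads. RNA was hydrolysed before sequencing, so a read's 5′ end need not be the start of its transcript. The 30 bases with the most 5′ ends, from 122 to 151 bp, are shown with the positions read in both libraries in capitals.
Etv5 read stretch, chr16:22439641-22439670, strand -: gcAgagcggTcttCAtcCcCGATCGCtgCG
This stretch held 45 MESC and 50 MEF reads, at 19 and 17 positions, of which 14 were shared. Counting each position once lowered the Etv5 index to 4.85 in MESC and 41.3 in MEF, since the promoter reads pile up on few positions in both libraries, and left their ratio at 8.52.

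Along the Etv5 body the deficit in MEF was present from start to end. In order, 5 equal parts of the body held 567, 393, 430, 360 and 297 reads in MESC and 61, 37, 38, 34 and 32 in MEF. The MESC to MEF ratio stayed between 7.12 and 8.68 in all 5. Density declined along the gene in both libraries, from 5.76 to 3.02 RPKM in MESC and from 0.809 to 0.424 RPKM in MEF. Nearly all of the body reads were intronic, 1981 of 2047 in MESC and 197 of 202 in MEF.

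**Figure D3:**
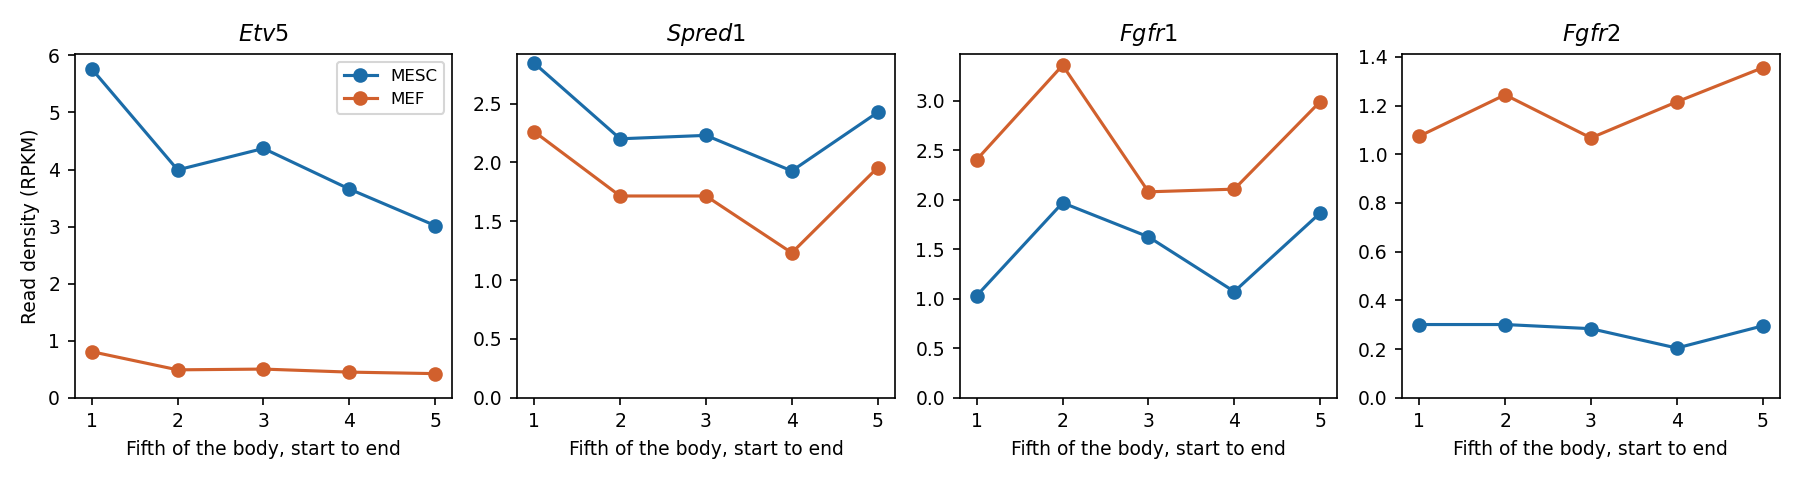
Read density (RPKM) in 5 equal parts of the body, from start to end, for Etv5, Spred1, Fgfr1 and Fgfr2 in MESC (blue) and MEF (orange). Each panel has its own axis from 0, and points are pooled libraries without error bars. In each of the 4 genes, the order of the cell types is the same in all 5 parts.

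Upstream of Etv5, antisense reads in the 500 bp window numbered 19 in MESC and 7 in MEF, and the ratio of 2.08 (0.838 to 5.86) included 1. Both counts lay above intergenic background. The antisense reads were too few to tell the libraries apart.

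Etv4 (chr11:101631061-101646685, minus strand, 13 exons) held 161 body reads in MESC and 92 in MEF, 1.28 and 0.957 RPKM. The body was 1.34-fold higher in MESC (1.03 to 1.75), about the shift of the median gene, and only 0.12 above it on the log2 scale. Of 5 equal parts of the body, the third alone had an interval beyond 1, at 3.72 (1.63 to 9.95) from 34 and 7 reads. Ratios of the other parts ran from 0.826 to 1.42. The promoter window held 14 and 4 reads. Its reads too began after the annotated start, at medians of 163.5 bp and 180.5 bp. Annotated starts 111, 113 and 149 bp into the gene tied for the most promoter reads, 23 and 8, and the start at 149 bp was used. From that start the index was 5.97 (3.68 to 9.27) in MESC and 3.59 (1.5 to 7.37) in MEF, and the promoter ratio of 2.20 (0.952 to 5.70) included 1. So Etv4 and Etv5 differed in what separated the cell types: the body of Etv5 was 7.77-fold higher in MESC with a promoter that was not higher, and that of Etv4 was 1.34-fold higher. Scaled to the median gene, the Etv4 body ratio was 1.09 (0.836 to 1.42), which includes 1.

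The Sprouty genes encode membrane-associated inhibitors of receptor tyrosine kinase signalling, and both were higher in MESC. Spry2 (chr14:106291166-106296036, minus strand, 2 exons) had the highest body density of the members, 14.8 RPKM in MESC from 490 reads and 5.50 RPKM in MEF from 140 reads. The body was 2.68-fold higher in MESC (2.22 to 3.26). The promoter held 85 and 24 reads and was 2.71-fold higher in MESC (1.71 to 4.47). Taken over the whole windows in the main setting, promoter and body thus moved by nearly the same factor. The body was uneven: MESC to MEF ratios of its 5 equal parts ran from 1.53 (0.781 to 3.15) to 5.06 (3.15 to 8.55). Over the alternatives tried, log2 ratios ran from 1.12 to 1.76 in the body and from 0.81 to 1.71 at the promoter.

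The Spry2 index was 1.91 (1.5 to 2.41) in MESC and 1.89 (1.17 to 2.93) in MEF, and the MEF to MESC ratio was 0.988 (0.578 to 1.64). The interval includes 1 and leaves room for a change in either direction. The ratio was 1.44 with the 35-base MESC reads alone and 0.742 with the 36-base reads alone, on both sides of 1. Spry2 also held a second read cluster outside the promoter window: 75 MESC and 18 MEF reads lay from 450 to 649 bp after the start, 3.19-fold higher in MESC (1.89 to 5.68).

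Spry4 (chr18:38745922-38760922, minus strand, 2 exons) held 468 body reads in MESC and 67 in MEF, 3.90 and 0.728 RPKM. The body was 5.36-fold higher in MESC (4.14 to 7.03). The promoter held 81 and 26 reads and was 2.39-fold higher (1.52 to 3.87). Both windows were higher in MESC, the body by more than the promoter.

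The Spry4 index was 6.90 (5.38 to 8.76) in MESC and 15.5 (9.44 to 24.7) in MEF, 2.24-fold higher in MEF (1.29 to 3.82). Its reads centred close to the annotated start, with medians of -8.0 bp in MESC and -15.5 bp in MEF, so the edges of the window matter. With a window from 0 to 150 bp the ratio was 1.47, and with one from 250 bp before to 500 bp after the start it was 1.96, both under the 2-fold threshold. The MESC reads of each length gave 2.46 and 2.05. Another gene starts 266 bp away, so the upstream antisense window of Spry4 was not assigned.

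**Figure D4:**
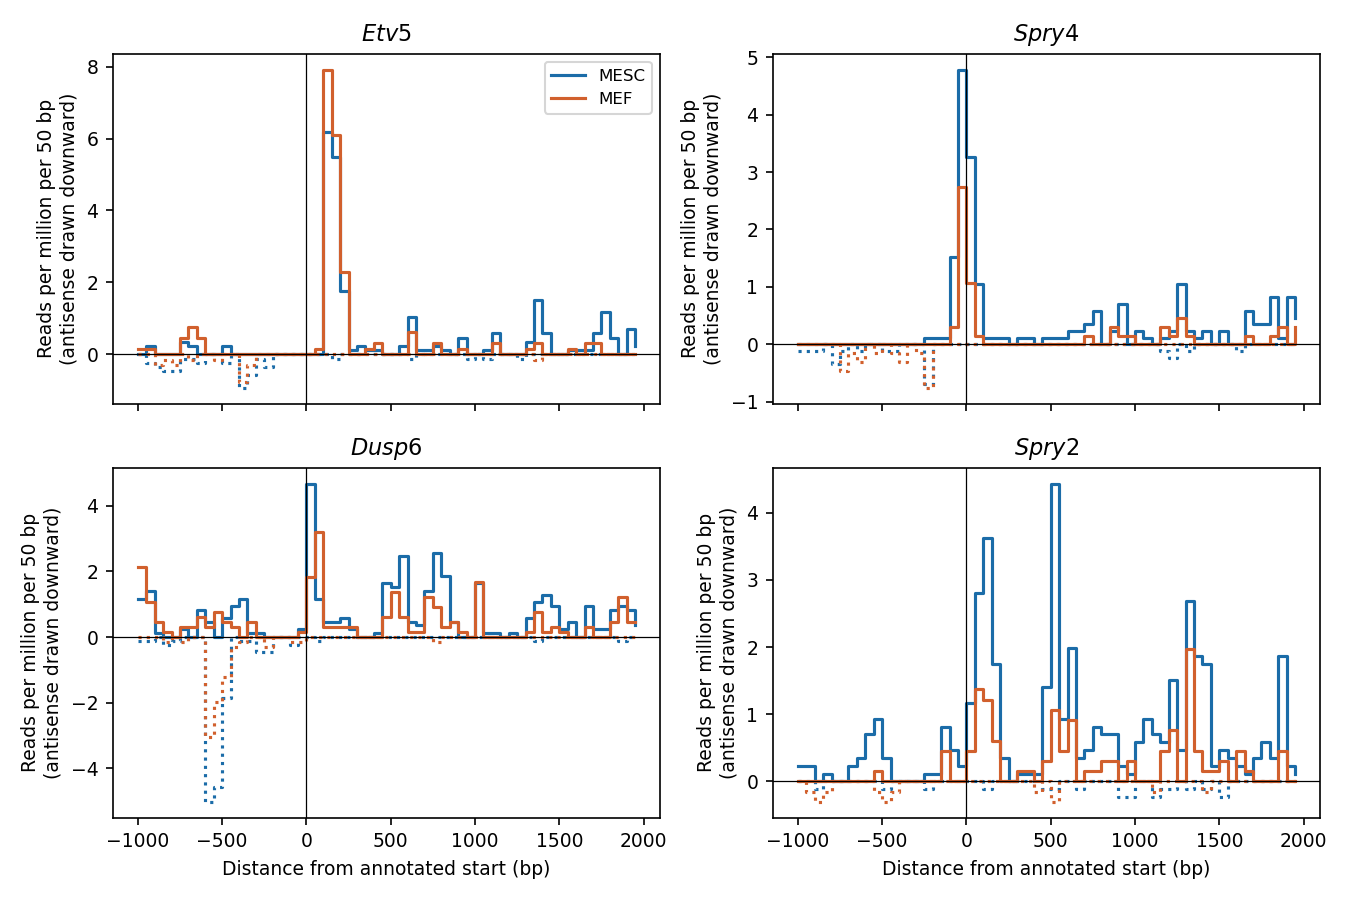
Reads in 50 bp bins, scaled to 1000000 reads per library, from 1000 bp before to 2000 bp after the annotated start of Etv5, Spry4, Dusp6 and Spry2, sense strand upward as full lines and antisense strand downward as dotted lines, for MESC (blue) and MEF (orange). The Etv5 sense peaks of the cell types have like heights, whereas the MESC line is higher at Spry4 and Spry2. Upstream antisense reads of Dusp6 peak about 500 bp before its start in both.

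Dusp6 encodes a cytoplasmic phosphatase that removes the activating phosphates from ERK. Dusp6 (chr10:98725865-98730122, plus strand, 3 exons) held 263 body reads in MESC and 97 in MEF, 9.42 and 4.53 RPKM, the second highest body density of the members in MESC. The body was 2.08-fold higher in MESC (1.64 to 2.65), and 0.75 on the log2 scale above the median gene. When the libraries were scaled to that median, it no longer reached 2-fold. The promoter held 67 and 42 reads, a ratio of 1.22 (0.819 to 1.84) that includes 1.

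The Dusp6 index was 2.37 (1.78 to 3.10) in MESC and 4.02 (2.73 to 5.83) in MEF, a MEF to MESC ratio of 1.70 (1.05 to 2.73). A single base at the start held 22 of the 67 MESC reads and 5 of the 42 MEF reads. Counted once per position, the index fell to 1.5 in MESC and 2.98 in MEF and the ratio was 1.98. The ratio was 2.18 with the 35-base MESC reads alone and 1.39 with the 36-base reads alone. With a promoter window from 250 bp before to 500 bp after the start it was 1.52. Spaced read clusters filled the first kilobase after the start, with 105 MESC and 35 MEF reads from 450 to 849 bp, 2.30-fold higher in MESC (1.56 to 3.48), close to the ratio of the body.

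Upstream of Dusp6, antisense polymerase formed a peak that lay partly outside the counted window. From 650 to 401 bp before the start, 98 MESC and 43 MEF antisense reads were found, 1.75-fold higher in MESC (1.21 to 2.56). The 500 bp antisense window cuts through this peak and held 28 and 15 reads, 1.43-fold (0.739 to 2.88). Sense reads also lay upstream, with 24 in MESC and 8 in MEF from 500 to 301 bp before the start. The ratio of this stretch, 2.3 (0.9996 to 5.92), included 1. Further upstream the libraries were closer. The 50 bp bins that begin at -1000 and -950 bp held 10 and 12 sense reads in MESC, and 14 and 7 in MEF. A MESC excess of sense reads over the whole upstream region was not tested. The antisense peak was seen in the profiles and its limits were set from them.

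The Spred proteins are Sprouty-related inhibitors that hold back RAS and RAF activation. Spred1 (chr2:116947110-117008015, plus strand, 7 exons) held 1194 body reads in MESC and 699 in MEF, 2.33 and 1.78 RPKM, 1.31-fold higher in MESC (1.19 to 1.44). This is about the shift of the median gene, and scaled to that gene the ratio was 1.06 (0.966 to 1.17), which includes 1. At its first annotated start only 2 MESC reads and 0 MEF reads were found. At the other annotated start, 264 bp further on, the promoter window held 21 MESC and 15 MEF reads, with a ratio of 1.07 (0.527 to 2.24) and an index of 3.02 (1.86 to 4.64) in MESC and 3.69 (2.06 to 6.14) in MEF. At the start that was read, the Spred1 promoter ratio thus had an interval around 1.

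Spred2 (chr11:19824378-19924029, plus strand, 7 exons) held 1528 body reads in MESC and 647 in MEF, 1.81 and 0.998 RPKM. The body was 1.81-fold higher in MESC (1.65 to 1.99). The promoter held 17 and 14 reads, a ratio of 0.931 (0.432 to 2.04). The index was 3.13 (1.82 to 5.02) in MESC and 6.08 (3.31 to 10.3) in MEF, and the MEF to MESC ratio of 1.95 (0.882 to 4.22) included 1. The body was higher in MESC with no promoter difference beyond counting error, but the counts are too low to place the index change.

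Read over all members, an index of at least 2 with an interval above 1 was found in 7 of 10 active members in MESC, against 56.2% of 12957 active genes, and in 6 of 9 in MEF, against 52.7% of 12184. These were Fgfr1, Fgfr2, Etv5, Spry4, Dusp6 and Spred2 in both, and Etv4 in MESC. The members' shares lie near those of all genes. Of the 5 members with enough reads in every window, Etv5 and Spry4 had an index at least 2-fold higher in MEF with an interval beyond 1, against 13.1% of 2243 genes, and none had one higher in MESC, against 4.90%. The median log2 ratio of the index, MESC over MEF, was -0.77 over the 5 and -0.24 over all 2243.

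**Figure D5:**
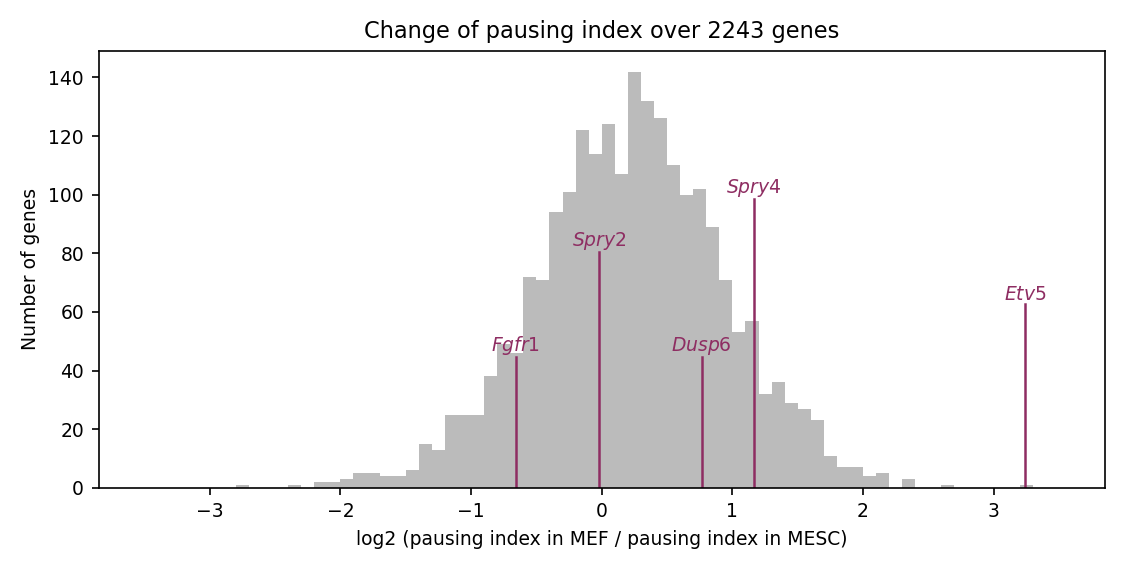
Histogram of the log2 ratio of the pausing index in MEF to that in MESC over 2243 genes, with the 5 tested members as vertical lines whose heights carry no value. Etv5 is at the far right of the distribution (9.43-fold), Spry4 (2.24-fold) and Dusp6 (1.70-fold) are right of centre, and Spry2 and Fgfr1 are left of it.

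Upstream antisense reads, which mark divergent transcription from the promoter, were above intergenic background for 7 of 9 members in MESC, against 68.1% of 9630 genes, and for 5 of 8 in MEF, against 57.5% of 9058. Spry4 was left out for its neighbour, and Fgf4 was not active in MEF. Spred1 held 24 reads in MESC and 17 in MEF, in a window that ends at its first annotated start. Etv4 held 13 and 3, Spred2 10 and 1, Fgf4 3 and 0, and Spry2 2 and 3. Fgfr1 and Fgfr2 held 1 read in each library and did not exceed background in either.

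Polymerase was also found beyond the annotated ends. In the 2000 bp after its end Spry2 held 349 MESC and 62 MEF reads, 20.4 and 4.72 RPKM, and Dusp6 260 and 97 reads, 15.2 and 7.38 RPKM. Etv5 held 142 and 22 reads, 8.28 and 1.67 RPKM, so its MESC excess extended past the gene. Densities in those 2000 bp were above the body density in both libraries for Fgfr1, Fgfr2, Etv4, Etv5, Spry4 and Dusp6.

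The other genes of the pathway give the setting. A list of 105 genes (ligands, receptors, adaptors, kinases, feedback genes and nuclear targets) matched 104 gene models, and 67 had a body that could be tested. Of these, 5 passed 4-fold in MESC and 5 passed it in MEF, against the 7.98% and 5.53% of all genes given above. At 2-fold with the interval beyond 1 the counts were 8 (11.9%) and 21 (31.3%), beside 20.8% and 12.7% of all genes, so the balance of the wider list lay toward MEF. Its median log2 ratio was -0.27, beside 0.30 over all genes.

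Among the wider ligands, 5 of 23 could be tested. Fgf8, known from gastrulation, had body counts of 54 in MESC against 0 in MEF. Its MESC excess was 13.8-fold against the 3-read floor, and the exact interval begins at 10.8. Fgf5, a marker of primed epiblast, was 4.66-fold higher in MESC (3.04 to 7.43), from 152 and 25 reads. Fgf7, a mesenchymal ligand for epithelia, was 11.8-fold higher in MEF (9.94 to 14.0), from 152 and 1371 reads. Of 9 receptors and co-receptors tested, none passed 4-fold in MESC. Fgfr3 was 11.2-fold higher in MEF from 7 and 60 reads, and Flrt2, a membrane protein that can bind FGF receptors, was 6.94-fold higher in MEF from 178 and 947 reads.

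Adaptors, RAS genes and kinases, the core of the cascade, came next. Of 15 adaptor and RAS genes tested, Gab2 alone passed 4-fold, 5.04-fold higher in MEF, and of 12 kinases tested none passed in either direction. Of 11 other feedback genes tested, 1 was 2-fold higher in MESC and 5 were 2-fold higher in MEF, with a median log2 ratio of -0.95. The 5 were Dusp1, Dusp5, Dusp10, Lrig1 and Errfi1, from 2.09-fold (Lrig1) to 3.06-fold (Errfi1). Il17rd, a membrane inhibitor of FGF signalling also called Sef, was 9.09-fold higher in MESC (7.56 to 11.0), from 1459 and 123 reads. Spry1, the remaining Sprouty gene counted, did not differ beyond counting error, with 79 and 74 reads and a ratio of 0.818 (0.588 to 1.14).

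Of 15 nuclear targets tested, 2 passed 4-fold in MESC and 1 in MEF, while at 2-fold 2 were higher in MESC and 7 in MEF, with a median log2 ratio of -0.78. Etv1, the third PEA3-family factor, was 9.22-fold higher in MESC, with a lower limit of 6.49, from 409 and 34 reads. Its promoter window held only 4 and 3 reads, so no index change could be placed for it. Epha2, a receptor kinase, was 7.99-fold higher in MESC, from 1658 and 159 reads, and Ets1 was 5.30-fold higher in MEF, from 181 and 735 reads. The PEA3 genes thus ranged from 1.34-fold for Etv4 to 9.22-fold for Etv1 in body ratio, with Etv5 at 7.77.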

How the data were processed

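Per the series text, alignment used Eland and mm9, and rRNA-like reads were removed. Samples of a cell type were merged, per the file headers. The deposited files hold 1 line per read with a value of 1, so the unit is a raw read count with no normalization by the authors. Treatment of duplicates and of reads with several matches is not given in the sources used here. Listed positions were 5′ ends: of every 400th read, 93.0% (MESC) and 95.5% (MEF) matched NCBIM37 (mm9) with at most 2 mismatches. Loci similar to ribosomal DNA still held 11.5% and 16.4% of reads.

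Genes came from the GENCODE annotation of NCBIM37, 1 model each, the longest transcript of at most 2500000 bp. Of 37093 models, 22788 spanned at least 2000 bp, and 2822 of these were dropped for overlap with a same-strand gene. Bodies were compared with at least 50 reads in 1 library, promoters with 20, and index changes with 20 in every window. Below 3 reads, 3 stood in. Intervals of ratios are exact and conditional (Clopper-Pearson), those of densities exact Poisson. Intergenic background, more than 10000 bp from genes, was 0.190 (MESC) and 0.114 (MEF) reads per kb and strand. Antisense counts needed a Poisson lower limit above it and no other start within 2000 bp.

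Counting used Python 3.11.15, numpy 2.4.6 and scipy 1.17.1. edgeR 4.0.16 gave TMM factors for an alternative scaling. The edgeR test planned for separable samples was not made, since the reads carry no sample name. The call rules were tried on simulated Poisson counts. These hold no PCR copies and no spread between samples, so that trial cannot speak to either. Named genes are all 10 members and, of the wider list, up to 6 per role with the largest change among those past 4-fold. Spry1 and the 5 feedback genes higher in MEF were added after their values were seen. Members and lists were chosen with earlier results of these data known. Promoter sequences were read from NCBIM37 by coordinates, because the RefSeq promoter table is on another build.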

Additional observations from a re-analysis of the deposited data

How the results depend on the processing

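No paired analysis was possible because the reads of each cell type were pooled before deposit, and leaving out a sample was not possible for the same reason. Fgf4 left the 4-fold call, for fewer than the reads required, with MESC thinned to the MEF total, with either read length alone, with bodies from 3000 bp and with a 200-read minimum. With a 2-fold rule the members higher in MESC became 5 in the body and 2 at the promoter. With the Fgfr2 model of over 3 Mb (added after seeing the data), Fgfr2 turned to 0.50 on the log2 scale and 0 members were 4-fold higher in MEF. Members with an index of at least 2 in MESC fell to 4 with the 35-base MESC reads alone (Fgfr2, Dusp6 and Spred2 dropped; 49.5% of all genes) and to 4 when the index had to reach 5 (41.8%). Members with an index higher in MEF fell to 1, Etv5, with a promoter window of 0 to 150 bp and also with one of -250 to 500 bp (15.0% and 11.7% of all genes). Members with an index higher in MESC rose to 1 with the 35-base reads (Fgfr1; 5.85% of all genes) and to 1 with at least 10 reads in each window (Fgfr2; 6.07%). Antisense calls fell to 3 of 8 in MEF with the most-read start site (56.8% of all genes). For Etv4 that start, at 149 bp, held 1 MEF antisense read, and the tied starts at 111 and 113 bp held 3. With a 250 bp window the calls fell to 1 of 8 in MEF (43.0%) and 3 of 9 in MESC (53.6%). The median promoter ratio of the tested members was -0.07 when each position was counted once, beside 0.08 over all genes. Scaling by the median body ratio or by TMM moved every ratio by -0.30 or -0.28 on the log2 scale, and each body kept its direction under both, though the intervals of Etv4 and Spred1 then included 1. The index ratios do not depend on the scaling. Depth limits the promoter values of Fgf4, Fgfr2, Etv4, Spred1 and Spred2, which held at most 23 reads in either library. The cause of these shifts was not tested.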
